A study of Oryctolagus cuniculus with 8 samples.

Results

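The genes described here are 7 effectors and markers of leukocytes and inflammation: S100A9, CXCL8, PTGS2, NFKBIA, CD14, CD68 and MS4A1. They were found on the array by matching each gene's symbol or full name to the annotation of every probe that is not a control, which gave 18 probes of 43603, and 7 genes of the 10023 that could be given 1 symbol. CXCL8 had 7 probes, PTGS2 and MS4A1 had 3 each, S100A9 had 2, and NFKBIA, CD14 and CD68 had 1 each. The genes were chosen by their values in these samples, above all the difference between dexamethasone and saline, so every difference between the groups given for them below is a description and carries no test.

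The samples are forebrains of New Zealand rabbit pups, all taken preterm by C-section on gestational day 29 (term is day 32), fed by gavage and euthanized at postnatal day 14. The pups of 1 group had received dexamethasone, a synthetic glucocorticoid, injected intramuscularly, 2 doses of 0.25 mg/kg each day over no more than 5 days. The control pups had received the saline vehicle. Each group has 4 samples, which the design text calls biological replicates. Whether a sample is 1 pup, and the postnatal age at treatment, are not given in the sources used here. The series' title places the study in the question of how glucocorticoids given after birth affect myelination.

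Background on these genes comes in 3 layers. Pattern-recognition receptors such as CD14, the co-receptor that passes bacterial endotoxin to the toll-like receptor complex, start a signal that ends in the transcription factor NF-kappaB. NF-kappaB is held in the cytoplasm by NFKBIA (IkappaB alpha) and, once released, drives transcription of CXCL8 (interleukin 8, which attracts neutrophils), of PTGS2 (cyclooxygenase 2, the inducible enzyme of prostaglandin synthesis) and of NFKBIA itself. S100A9 is a subunit of calprotectin, abundant in neutrophils and monocytes. CD68 is a lysosomal protein of macrophages and microglia, and MS4A1 (CD20) is a surface protein of B cells. In bulk forebrain RNA, fewer cells of a type and less RNA per cell cannot be told apart. Glucocorticoids are widely known to lower the transcription of many inflammatory genes.

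RNA was hybridised to 4 Agilent 2-colour rabbit arrays, each of which held 2 samples of 1 group, with Cy3 for the odd and Cy5 for the even sample number. Saline samples 1 and 2 share an array, as do saline 3 and 4, dexamethasone 1 and 2, and dexamethasone 3 and 4. Both saline arrays lay on 1 slide read in 1 scan and both dexamethasone arrays on another slide read in another scan, so slide, scan and treatment cannot be told apart. From 39.1% to 64.3% of probes were well above background per sample. Values are log2 intensities after background correction and normalisation. A scale for dim signal comes from the 13713 probes that were well above background in no sample, whose 95th percentile lay between 8.01 and 8.11 in the 8 samples. Across 11249 genes tested with limma, 7 (0.0622%) passed a Benjamini-Hochberg adjusted p of 0.05, 2 higher and 5 lower with dexamethasone. With each sample scaled only to its 75th percentile, 2085 passed, of which 97.9% were lower, against 71.4% of the 7. Of 8 forebrain neuron markers with a probe, 7 were tested and 0 were below background in every sample.

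The 2 S100A9 probes read opposite strands, and most of what follows on S100A9 turns on this. Probe A_04_P043657 was designed on the S100A9 transcript NM_001256473, begins at its base 167, and lies at chr13:39032371-39033712 on the minus strand of build oryCun2, its 60 bases being split over a span of 1342. Probe A_04_P013121 was designed on the expressed sequence tag FD466270 and lies at chr13:39032375-39033716 on the plus strand. The sequences of all probes are those in the deposited scanner files. Both are printed 5′ to 3′, with the run of 56 bases that one shares with the reverse complement of the other in capitals, and the last line gives that reverse complement.
S100A9 A_04_P043657: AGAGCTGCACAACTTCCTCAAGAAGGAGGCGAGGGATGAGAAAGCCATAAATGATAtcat
S100A9 A_04_P013121: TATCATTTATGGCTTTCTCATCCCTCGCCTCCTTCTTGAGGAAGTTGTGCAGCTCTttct
S100A9 A_04_P013121 reverse complement: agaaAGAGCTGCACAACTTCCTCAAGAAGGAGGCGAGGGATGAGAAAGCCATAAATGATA
Pairs of this kind are uncommon on the array. With a shared run of at least 40 bases, 57 pairs of probes with the same symbol were found, in 7 genes, and in 56 of those pairs 1 probe of the pair passed the filter on dim probes and the other did not, with overlapping probes of a gene counted in several pairs.

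A group of 3 CXCL8 probes begins at bases 222, 223 and 224 of the transcript NM_001082293 and lies within chr15:76370623-76370953 on the minus strand, each split over a span of 329 bases. They are shown because they are nearly the same sequence and gave different group differences. The 58 bases that all share are in capitals.
CXCL8 A_04_P004970: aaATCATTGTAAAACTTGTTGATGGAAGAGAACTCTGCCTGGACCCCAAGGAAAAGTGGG
CXCL8 A_04_P004969: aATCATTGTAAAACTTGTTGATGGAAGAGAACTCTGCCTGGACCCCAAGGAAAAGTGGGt
CXCL8 A_04_P004968: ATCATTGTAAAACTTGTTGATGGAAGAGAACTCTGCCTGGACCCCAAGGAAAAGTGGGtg

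Other probes that carry a result are given next, with the letters of a stop codon in capitals where a probe ends in them. The NFKBIA probe, the only one shown that does, begins at base 885 of its array transcript ENSOCUT00000015644 (chr17:55106935-55107262, minus strand). The CD68 probe begins at base 725 of ENSOCUT00000010382 (chr19:11599137-11599196, minus strand). The PTGS2 probe shown begins at base 1572 of NM_001082388 (chr16:83711629-83711688, plus strand), upstream of the other PTGS2 probes, which begin at bases 3141 and 3242. The MS4A1 probe begins at base 788 of ENSOCUT00000007941 (chr1:193053756-193053815, plus strand).
NFKBIA A_04_P073212: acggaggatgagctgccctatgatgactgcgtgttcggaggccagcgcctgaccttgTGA
CD68 A_04_P066802: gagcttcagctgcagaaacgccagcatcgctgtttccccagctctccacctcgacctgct
PTGS2 A_04_P041862: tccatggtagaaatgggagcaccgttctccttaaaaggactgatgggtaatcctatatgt
MS4A1 A_04_P063563: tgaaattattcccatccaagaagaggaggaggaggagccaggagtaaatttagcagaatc

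With 1 probe a gene, the one with the highest mean, all 7 genes had a mean difference below 0 between dexamethasone and saline, with a median of -0.38 on the log2 scale against 0.02 over all genes tested, of which 46.4% were below 0. None of the 7 passed the adjusted threshold, where the background is 0.0622%. In 2 of them, the S100A9-named probe and a CXCL8 probe, all dexamethasone samples lay below all saline samples, which held for 7.65% of all genes. Among all 18 probes this held for 3, the last being a PTGS2 probe, against 5.37% of all probes on the array without a filter. Since the genes were picked with these values known, nothing is read from these counts. Of the 18 probes, 10 passed the filter, which asks for a signal well above background in 4 or more of the 8 samples. By the same flag, 5 were above background in all 8, 5 in 1 to 3 samples and 3 in none.

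**Figure D1:**
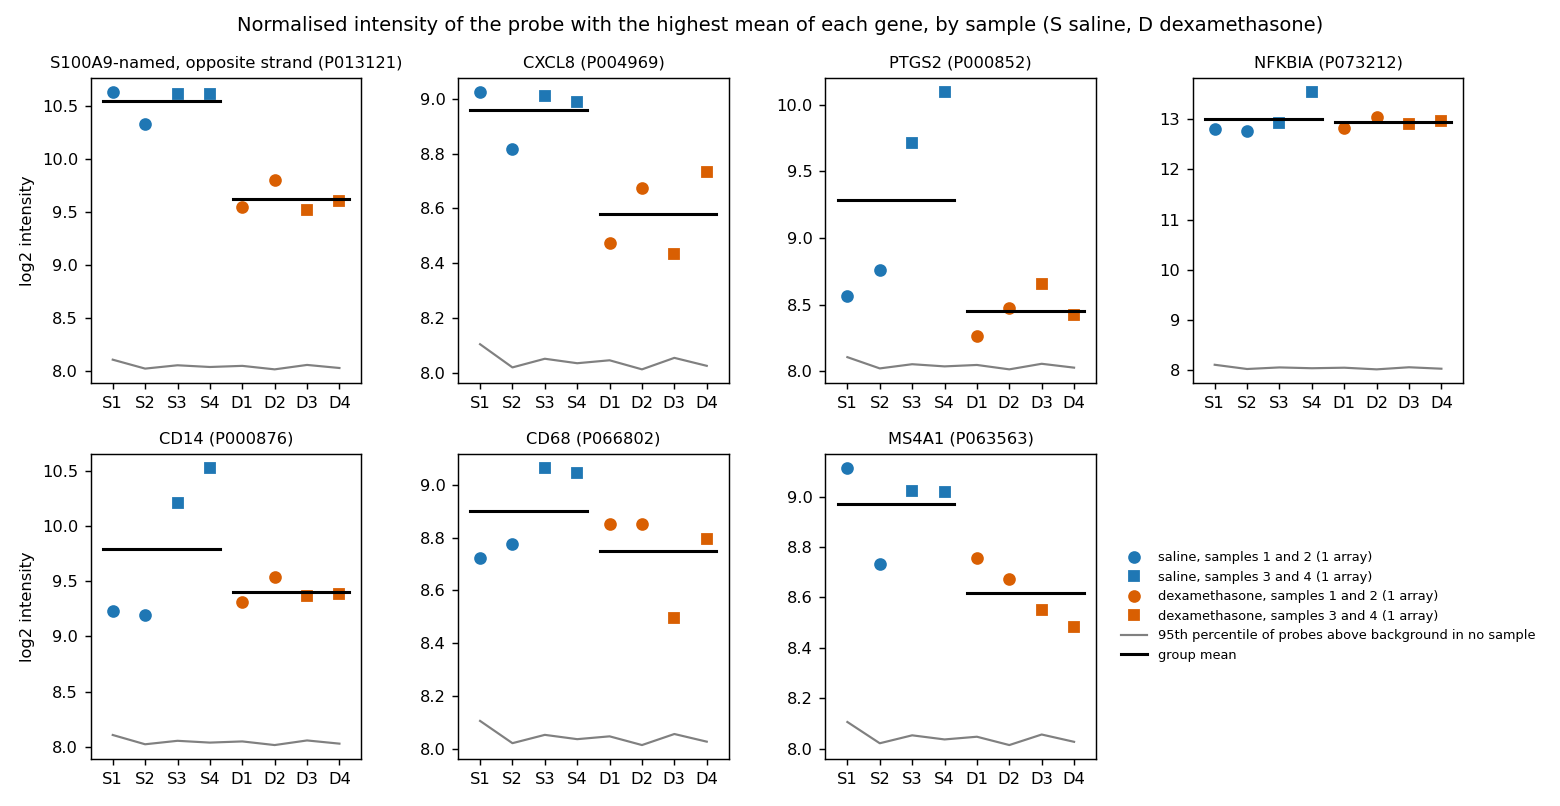
Normalised log2 intensity (y axis, a different range in each panel) of the probe with the highest mean of each gene in the 4 saline (S, blue) and 4 dexamethasone (D, orange) samples, with circles and squares for the 2 arrays of a group, a black bar for the group mean, and a grey line for the 95th percentile of probes above background in no sample. The S100A9-named opposite-strand probe and the CXCL8 probe separate the groups, whereas PTGS2 and CD14 are high in saline 3 and 4 only.

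The probe named for S100A9 that separated the groups was the one on the opposite strand. It read 10.63, 10.34, 10.61 and 10.62 in saline samples 1 to 4, and 9.55, 9.81, 9.52 and 9.60 in dexamethasone samples 1 to 4. Every dexamethasone sample lay below every saline sample, and the probe was above background in all 8. The difference was -0.93 (SE 0.13), a level of 0.525 of that in saline. It was -0.86 against saline 1 and 2 and -0.995 against saline 3 and 4, so that it did not rest on either saline array.

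The probe on the strand of the S100A9 transcript gave another pattern. It read 7.84, 7.97, 8.64 and 8.80 in saline 1 to 4, and 7.67, 7.94, 7.83 and 7.98 in dexamethasone 1 to 4. Only saline 3 and 4 exceeded the 95th percentile of dim probes, and only saline 4 was well above background. Saline 1 and 2 overlapped the dexamethasone samples. The difference, dexamethasone minus saline, was -0.05 against saline 1 and 2 and -0.86 against saline 3 and 4. The mean difference was -0.46 (SE 0.22) in a fit without the filter on dim probes, run for this probe after its values had been seen. With 1 sample of 8 well above background, no fold is given for S100A9 mRNA. Which RNA the opposite-strand probe bound was not tested, so its difference is not given here as one of S100A9 mRNA.

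**Figure D2:**
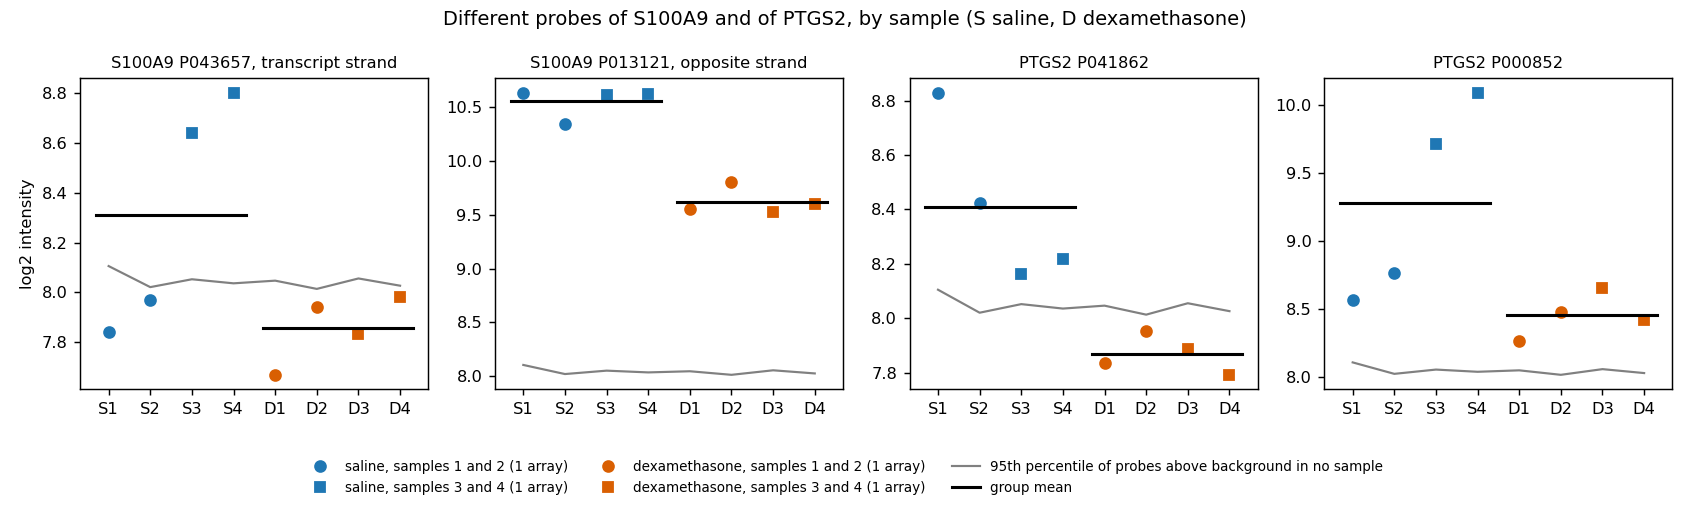
Log2 intensity (y axis, a different range in each panel) by sample of the transcript-strand and opposite-strand S100A9 probes and of the PTGS2 probes that begin at bases 1572 (P041862) and 3141 (P000852); symbols, bars and grey line mark the same quantities as in the plot of 1 probe a gene. Saline 3 and 4 are the high samples for the transcript-strand S100A9 probe and PTGS2 P000852, while saline 1 and 2 are higher for PTGS2 P041862.

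Other neutrophil and monocyte markers give the setting for S100A9. Of 24 listed genes 16 had a probe and 9 were tested. None passed the adjusted threshold, and at an unadjusted p of 0.05 limma gave 0 higher and 2 lower, against 5.91% higher and 7.86% lower over all genes. The median difference of the 9 was -0.19, and their mean level spanned 9.06 to 9.21 over the saline samples and 8.90 to 9.07 over the dexamethasone samples. CXCR1, a receptor for interleukin 8, had means of 11.10 ± 0.15 in saline and 10.74 ± 0.17 (SD, n = 4 each) with dexamethasone, a difference of -0.36 (SE 0.15; limma adjusted p = 0.36), with no overlap of the groups, a separation that 7.65% of all genes showed in this direction. MPO, the myeloperoxidase of neutrophil granules, differed by -0.24 (SE 0.10; limma adjusted p = 0.36). CCR2, CYBB and FPR1 were above background in no sample. The part of leukocyte number in the S100A9 values was not tested.

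CXCL8 depended on which of the nearly identical probes was read. Probe A_04_P004969 read 9.02, 8.82, 9.01 and 8.99 in saline 1 to 4 and 8.47, 8.67, 8.43 and 8.73 in dexamethasone 1 to 4. Its groups did not overlap, and the difference was -0.38 (SE 0.12).

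The probe 1 base upstream, A_04_P004970, read 8.91, 8.68, 8.83 and 8.85 in saline and 8.54, 8.76, 8.56 and 8.68 with dexamethasone. Its groups overlapped and its difference was -0.18 (SE 0.11). The probe 1 base downstream, A_04_P004968, read 9.13, 8.80, 8.40 and 8.48 in saline and 8.73, 8.93, 8.59 and 8.58 with dexamethasone.

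For this last probe the saline samples spanned the dexamethasone samples and the difference was 0.00 (SE 0.19). It was lower in saline 3 and 4 than in saline 1 and 2, by 0.53 on the log2 scale, while A_04_P004969 differed by 0.08 between these arrays in the other direction. Over the 3442 pairs of tested probes on the array that begin 1 base apart, the group differences of a pair differed by a median of 0.13, and 95% of pairs differed by less than 0.45. The gap of 0.39 between A_04_P004969 and A_04_P004968 was matched or exceeded by 8.08% of the pairs. The mean over the 3 probes gave a difference of -0.19. The CXCL8 difference also depended on the scaling, with the brightest CXCL8 probe chosen anew under each. It was -0.91 with processed signals, -0.92 with 75th percentile scaling, -1.27 with loess alone and -0.68 in the deposited series values.

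The other 4 CXCL8 probes begin at bases 274, 275, 1291 and 1351 and were well above background in saline 4 at most. The probe at base 1351 read 7.78, 7.69, 8.22 and 8.28 in saline 1 to 4 and 7.48, 7.51, 7.57 and 7.75 with dexamethasone. The probe at base 1291 read 7.84, 7.76, 8.21 and 8.29 in saline and 7.90, 7.74, 7.83 and 7.76 with dexamethasone. In both, saline 3 and 4 stood above the 95th percentile of dim probes and the other 6 samples did not. The same held by a smaller margin at base 275, with 8.05 and 8.07 in saline 3 and 4, and at base 274 no sample exceeded it. The probes far downstream therefore singled out the same saline samples as the transcript-strand S100A9 probe, whereas the 3 bright CXCL8 probes did not.

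**Figure D3:**
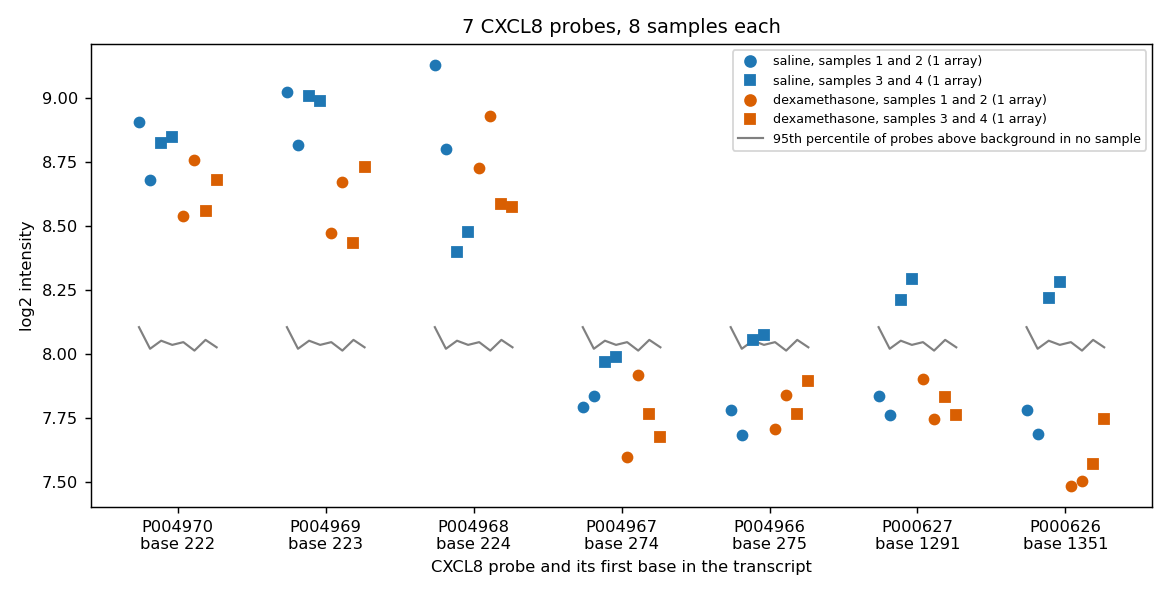
Log2 intensity (y axis) of the 7 CXCL8 probes, ordered on the x axis by their first base in the transcript, in the 4 saline (blue) and 4 dexamethasone (orange) samples, with circles and squares for the 2 arrays of a group and a grey line for the 95th percentile of probes above background in no sample. Probes at bases 222 to 224 lie above the line in all samples, and at bases 1291 and 1351 only saline 3 and 4 do; heights are not comparable between probes.

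PTGS2 was high in saline 3 and 4 at both downstream probes. The probe at base 3141 read 8.56, 8.76, 9.71 and 10.09 in saline 1 to 4 and 8.27, 8.47, 8.65 and 8.42 in dexamethasone 1 to 4. It was well above background in 2 saline and 3 dexamethasone samples. Saline 1 lay below dexamethasone 3, so the groups overlapped. The difference was -0.83 (SE 0.33), made up of -0.21 against saline 1 and 2 and -1.45 against saline 3 and 4. At the brightest PTGS2 probe under each scaling, the difference was -1.73 with loess alone and -1.39 with 75th percentile scaling.

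The probe at base 3242 showed the same order of samples, with 8.19, 8.33, 9.13 and 9.34 in saline and 8.08, 8.11, 8.24 and 8.11 with dexamethasone, and a difference of -0.62 (SE 0.26). The base 3242 probe was well above background in 2 saline and 2 dexamethasone samples. The upstream probe at base 1572 ran the other way among the saline samples. It read 8.83, 8.42, 8.17 and 8.22 in saline 1 to 4 and 7.84, 7.96, 7.89 and 7.79 with dexamethasone. All saline samples exceeded all dexamethasone samples and the 95th percentile of dim probes, and none of the dexamethasone samples did. It was well above background in 3 saline samples and no dexamethasone sample, so the dexamethasone level at this probe is poorly measured. The difference was -0.54 (SE 0.16) in a fit without the filter on dim probes, a level 1.45-fold lower with dexamethasone. No bound on this fold is given, since the lowest signal called above background in each dexamethasone sample lay below its value at this probe. Dexamethasone values were thus below those of saline 3 and 4 at all 3 probes, but by how much, and whether saline 1 and 2 shared the higher level, depended on the probe.

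Enzymes and receptors of the same lipid mediators gave no call. Of 20 listed genes, 14 had a probe and 9 were tested, 5 with a difference above 0 and 4 below, and their median was 0.04. PTGER4, a prostaglandin E2 receptor, had the smallest p of the 9. It was well above background in 2 saline and 4 dexamethasone samples, so it passed the filter through the group where it read higher. It read 8.66, 8.84, 8.25 and 8.26 in saline and 10.05, 9.45, 8.79 and 8.99 with dexamethasone, a difference of 0.82 (SE 0.29; limma adjusted p = 0.34), and dexamethasone 3 lay within the saline range. ANXA1, the glucocorticoid-regulated annexin that restrains phospholipase activity, differed by 0.33 (SE 0.15; limma adjusted p = 0.37).

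NFKBIA was well above background in every sample, and its groups overlapped. It read 12.80, 12.76, 12.92 and 13.54 in saline 1 to 4 and 12.83, 13.05, 12.90 and 12.97 in dexamethasone 1 to 4. Saline 4 was the highest of the 8 and the other saline samples lay among or just below the dexamethasone samples. The difference was -0.07 (SE 0.18), and it was 0.11 without saline 4 and 0.16 without saline 3 and 4. Its sign also turned with the scaling, at 0.05 for the scanner's processed signals, 0.28 with loess alone, 0.63 with 75th percentile scaling and 0.17 in the authors' deposited series values. No direction can be given for NFKBIA.

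Among the other NF-kappaB factors and inhibitors, 11 of 20 listed genes had a probe, 6 were tested, none passed the adjusted threshold in either direction, and their median difference was 0.06. TSC22D3 (GILZ), a glucocorticoid-induced protein that binds NF-kappaB, read 8.35, 8.46, 8.28 and 8.32 in saline and 8.57, 8.47, 8.64 and 8.50 with dexamethasone, a difference of 0.19 (SE 0.10; limma adjusted p = 0.40). CHUK, a kinase that acts on IkappaB proteins, differed by 0.21 (SE 0.11; limma adjusted p = 0.41). TSC22D3 was well above background in 2 saline and 4 dexamethasone samples, so it passed the filter through the group where it read higher. IKBKB, IKBKG and MAP3K14 were above background in no sample.

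CD14 differed more between the saline arrays than between the groups. It read 9.23, 9.20, 10.21 and 10.53 in saline 1 to 4 and 9.31, 9.54, 9.37 and 9.39 in dexamethasone 1 to 4. Saline 1 and 2 were the lowest of the 8 samples and saline 3 and 4 the highest, with all dexamethasone samples between them. The mean difference was -0.39 (SE 0.30). It was 0.19 without saline 3 and 4 and -0.97 without saline 1 and 2, so its direction depended on which saline array was compared. With processed signals it was -0.08 and with loess alone -0.72.

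Of 17 listed genes of endotoxin recognition and its adaptors, 9 had a probe and 7 were tested. None passed the adjusted threshold, 2 lay above 0 and 5 below, and the median was -0.05. LY96, which binds endotoxin beside TLR4, differed by 0.20 (SE 0.14; limma adjusted p = 0.49), and BPI, an endotoxin-binding protein of neutrophil granules, by -0.28 (SE 0.20; limma adjusted p = 0.51). For BPI, saline 3 and 4 were the highest samples, as for CD14, but exceeded saline 1 and 2 by 0.19, and for LY96 they were the lowest samples, 0.37 below saline 1 and 2 on the log2 scale.

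CD68 showed the same split of the saline arrays on a smaller scale. It read 8.72, 8.78, 9.06 and 9.05 in saline 1 to 4 and 8.85, 8.85, 8.49 and 8.79 in dexamethasone 1 to 4. Saline 3 and 4 were the highest samples, while saline 1 and 2 lay within the dexamethasone range. The difference was -0.15 (SE 0.13) and came to -0.00 without saline 3 and 4. It was -0.07 without saline 3 and -0.07 without dexamethasone 3, the lowest sample, and between -0.23 and -1.18 with the other scalings.

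Other microglia and macrophage markers gave no call. Of 24 listed genes 13 had a probe, 7 were tested, 0 passed the adjusted threshold, and 5 of the 7 lay above 0, with a median of 0.15. The median was that of MRC1, which was well above background in 2 saline and 4 dexamethasone samples. MRC1 thus passed the filter through the group where its mean was higher. CTSD, the lysosomal protease cathepsin D, had means of 8.81 ± 0.16 in saline and 9.08 ± 0.13 (SD, n = 4 each) with dexamethasone, a difference of 0.27 (SE 0.11; limma adjusted p = 0.36), and its groups did not overlap, which held in this direction for 5.59% of all genes. LGALS3, galectin 3, differed by 0.25 (SE 0.19; limma adjusted p = 0.53). The mean level of the 7 spanned 9.04 to 9.36 in saline and 9.26 to 9.37 with dexamethasone, and CD74, CD86 and MSR1 were above background in no sample. The part of microglial number in the CD14 and CD68 values was not tested.

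MS4A1 was measurable at only 1 of its 3 probes. Probe A_04_P063563 read 9.11, 8.73, 9.02 and 9.02 in saline 1 to 4 and 8.76, 8.67, 8.55 and 8.48 in dexamethasone 1 to 4. Saline 2 lay below dexamethasone 1, so the groups overlapped by 1 pair of samples, and the difference was -0.36 (SE 0.12). It was -0.31 against saline 1 and 2 and -0.40 against saline 3 and 4, and between -0.57 and -1.45 with the other scalings.

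The other MS4A1 probes begin 44 and 100 bases upstream, at bases 744 and 688 of the same array transcript, and were above background in no sample. The nearer one shares 16 bases with the measurable probe and still read between 7.68 and 8.12 in all samples, above the 95th percentile of dim probes in saline 3 and 4 only. Its values with dexamethasone differed by -0.01 from saline 1 and 2 and by -0.37 from saline 3 and 4, the split seen at the dim CXCL8 and S100A9 probes. The capitals mark the shared bases.
MS4A1 A_04_P063564: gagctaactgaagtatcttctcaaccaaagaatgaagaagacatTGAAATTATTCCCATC
MS4A1 A_04_P063563: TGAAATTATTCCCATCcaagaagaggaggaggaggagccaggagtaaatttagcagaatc
Of 24 listed lymphocyte markers, 17 had a probe and 4 were tested, CD3D, CD8A, CD8B and LCK, which are T-cell genes. The B-cell markers CD22 and CD79B, the T-cell genes CD3E, CD3G and CD28 and the pan-leukocyte gene PTPRC were above background in no sample. The mean level of the 4 spanned 8.46 to 8.61 in saline and 8.28 to 8.62 with dexamethasone. LCK, a kinase of T-cell receptor signalling, differed by 0.37 (SE 0.09; limma adjusted p = 0.24) and CD8A by -0.24 (SE 0.10; limma adjusted p = 0.36). LCK was well above background in 1 saline and 4 dexamethasone samples, so it passed the filter through the group where it read higher. Of the 4 genes tested, 1 lay above 0 and 3 below, with a median of -0.20. Whether the MS4A1 probe read B cells was not tested.

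**Figure D4:**
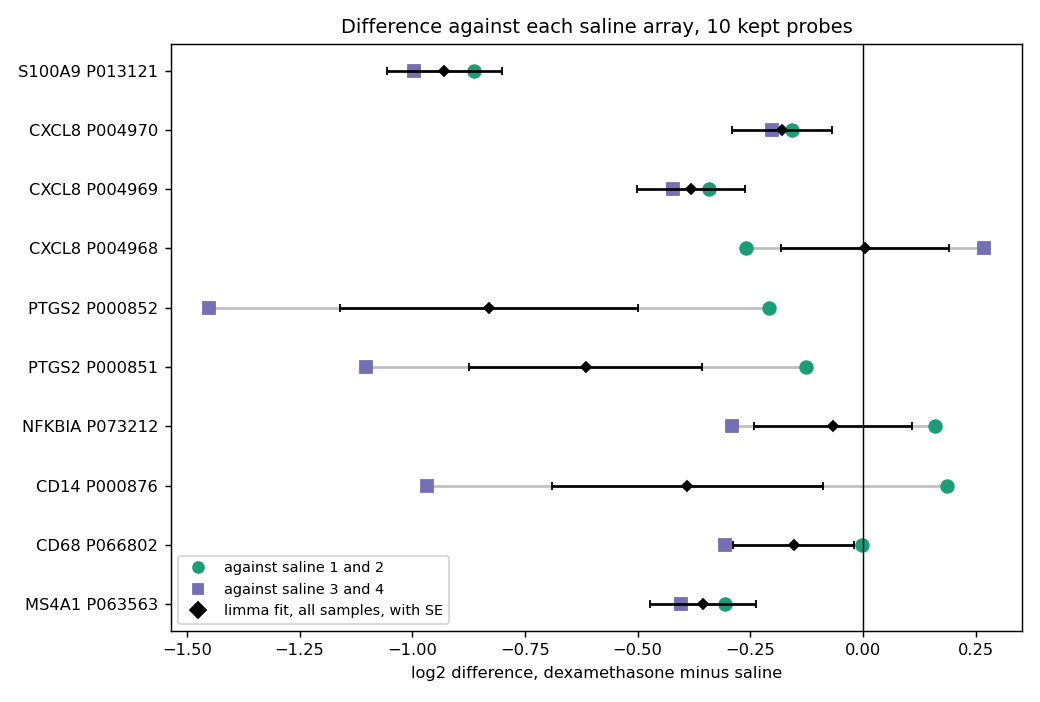
Log2 difference, dexamethasone minus saline (x axis), for the 10 probes that passed the filter (y axis), against saline 1 and 2 (green circles), against saline 3 and 4 (purple squares), and from the limma fit over all samples (black diamonds with the SE as bars). The opposite-strand S100A9 probe, CXCL8 P004969 and MS4A1 keep nearly the same difference against both saline arrays. PTGS2 P000852 and CD14 spread by more than 1 log2 unit. CXCL8 P004968, CD14 and NFKBIA change sign. CXCL8 P004968 has -0.26 against saline 1 and 2 and 0.27 against saline 3 and 4. In the same order CD14 has 0.19 and -0.97, and NFKBIA 0.16 and -0.29.

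The saline arrays thus divide the genes. Saline 3 and 4 exceeded saline 1 and 2 by 1.24 for PTGS2 and 1.15 for CD14 on the log2 scale, differences that 1.40% and 1.60% of all genes matched or exceeded in size. For NFKBIA the excess was 0.45 and for CD68 it was 0.31, matched or exceeded by 11.7% and 25.0% of genes. For the opposite-strand S100A9 probe, MS4A1 and CXCL8 it was 0.13, 0.10 and 0.08. Over all genes the median absolute difference between the saline arrays was 0.17, between the dexamethasone arrays 0.10, and between the groups 0.15. The array of saline 3 and 4 also had the most outlier spots, 2486 and 3022 in its channels, against 197 to 1121 in the other 6 samples, and the part of spot quality in these values was not tested. The cause of the high values in saline 3 and 4 was not tested, and the array, which holds these samples alone, and the samples themselves cannot be told apart.

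Some other inflammatory genes shared this split and others did not. Of the 46 pathway and marker genes tested, 29 were higher in saline 3 and 4 than in saline 1 and 2 and 17 lower, with a median of 0.05, and over all genes 47.4% were higher. An excess of 1 log2 unit or more was seen in 3 of the 46, CCL2, CCL4 and NFKBIZ, and in 1.26% of all genes. The lowest were PTGER4 and ALOX5AP, at -0.50 and -0.46. Only 4 of the 22 listed cytokines, chemokines and adhesion molecules with a probe were tested. CCL2, which attracts monocytes, read 8.46, 8.47, 9.92 and 10.61 in saline 1 to 4 and 8.31, 8.62, 8.31 and 8.58 in dexamethasone 1 to 4. CCL4, another chemokine, read 9.16, 8.83, 10.05 and 10.66 in saline and 8.92, 9.08, 8.70 and 9.26 with dexamethasone. In both, saline 3 and 4 were the highest samples, and saline 1 and 2 lay among the dexamethasone samples. Against saline 1 and 2, the difference, dexamethasone minus saline, was -0.01 for CCL2 and -0.00 for CCL4. Over all samples CCL2 differed by -0.91 (SE 0.46; limma adjusted p = 0.40) and CCL4 by -0.68 (SE 0.38; limma adjusted p = 0.43). NFKBIZ, an IkappaB-family regulator induced by endotoxin and named here after its values were seen, read 8.39, 8.39, 9.37 and 9.59 in saline and 8.35, 8.28, 8.70 and 8.33 with dexamethasone. TNF and IL1A were above background in no sample.

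Taking the 7 lists of pathway genes and leukocyte markers together, 163 genes were listed beyond the members and 46 were tested. None passed the adjusted threshold, and at an unadjusted p of 0.05 limma gave 3 higher and 3 lower, against the same shares over all genes as for the neutrophil list. Their median difference was -0.04, with 20 above 0 and 26 below.

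The genes whose dye-centred values lay closest to each member over the 8 samples were found among 5742 genes by the root mean square difference, as a description. The values closest to the opposite-strand S100A9 probe were those of IL4R, at 0.12 log2 units, and POLR2J, at 0.14. CCN1 and NFKBIZ lay closest to PTGS2, at 0.16 and 0.17, and TJP1 and ZNF180 closest to CD14, at 0.10 and 0.12. For CXCL8 the closest were CUL5 and RAD51D, for NFKBIA YEATS4 and AP5M1, for CD68 SNX2 and FUBP3, and for MS4A1 NEDD4L and MAGI1.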

How the data were processed

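A sample's values come from the channel of its dye, per the labels. The scanner files were deposited with an intensity per spot (mean and background median) and the scanner's processed signal. The submitters' processing notes name Agilent Feature Extraction 10.7.3.1, and the file headers name version 11.0.1.1. Each array's file was deposited for both of its samples. The series table the authors deposited holds a signal per spot and was used as an alternative. Coordinates are in oryCun2, per the file headers. Gene names came from the array's annotation and a RefSeq gene table (mOryCun1.1), with 22589 of 43603 probes given 1 symbol, 21 several and 20993 none.

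Normexp background correction (offset 50) was followed by loess normalisation within each array, which ignored control and outlier spots, and then by Aquantile normalisation between arrays. The log2 value of each channel was used. Outlier spots, from 197 to 3022 per sample and most on the array of saline 3 and 4, were left out, and 0 were saturated. No member value was missing. The filter kept 23165 probes, genes needed 3 values per group, and a gene was represented by its brightest probe. Groups were compared with limma 3.58.1 in R 4.3.3. Dye was a fixed term and array a random block with a consensus correlation of 0.24. Benjamini-Hochberg adjustment ran over 11249 genes or 20704 probes. The fit was tested on simulated data.

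Members and lists were chosen with earlier results of these data known. The genes named were the members, the 2 genes with the smallest p in each pathway and leukocyte list, and the 2 genes closest to each member. NFKBIZ, ALOX5AP, PTGDS, MRC1, ABCB1 and the erythroid genes were named after their values were seen. Some listed genes were also named as tested or as above background in no sample. Alternatives covered background correction, scaling, filter, probe rule, array block, dye, replicate block, outlier spots, and samples and arrays left out. The number of arrays limits the precision. A probe sequence and a listed gene are not reported here.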

Additional observations from a re-analysis of the deposited data

Results flagged for a closer look

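In 3 of 36 groups of 4 samples, 1 sample stood apart from the others of its group by more than Dixon's 95% critical value for its gap over the group's range, where chance flags about 1 in 20 groups. Saline 2 read 10.34 at the opposite-strand S100A9 probe, with the nearest saline sample at 10.61 and a ratio of 0.933. Saline 2 also read 8.82 at CXCL8 probe A_04_P004969, with the nearest saline sample at 8.99 and a ratio of 0.832. In both it was the saline sample closest to the dexamethasone group, and without it the differences were -1.02 and -0.45. Dexamethasone 3 read 8.49 at the CD68 probe, with the nearest dexamethasone sample at 8.79 and a ratio of 0.833.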

How the results depend on the processing

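Against 7 genes called, 14 were called with processed signals, 0 with loess only, 2085 with 75th percentile scaling, 3 when probes had to be above background in all 8 samples, 2 without the filter, 25 without the array block and 18 without the dye term. Leaving out samples gave 0 to 15, with 0 without any 1 dexamethasone sample and 15 without saline 2. By array it was 2277 without saline 1 and 2, 194 without saline 3 and 4, 0 without dexamethasone 1 and 2 and 1 without dexamethasone 3 and 4. Without either saline array the fitted array correlation was -0.32 or -0.37, against 0.24 in the main fit. With 1 saline array left, the spread between saline arrays cannot be estimated, so nothing is read from counts of these fits. Of probes, 7 were called, 3 with the stricter filter and 28 without the array block. Of pathway genes, 0 were called, 13 with 75th percentile scaling and 11 without saline 1 and 2. The cause was not tested. Deviations of same-numbered samples from their group means correlated by -0.13 to 0.10. After dye centring this was -0.27 to -0.10, but that step lowers the correlation by construction, since same-numbered samples share a dye. No pairing by replicate number was seen, and a replicate block gave 5 genes.

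The median of all genes was 0.17 with processed signals, -0.59 with loess only, -0.24 with 75th percentile scaling and 0.13 in the deposited table, against 0.02. Relative to it, the opposite-strand S100A9 difference was -1.37, -0.54, -0.54 and -1.24, CXCL8 was -1.07, -0.68, -0.68 and -0.81, PTGS2 was -1.30, -1.14, -1.14 and -1.17, MS4A1 was -0.74, -0.85, -0.85 and -0.71, CD68 was -0.58, -0.58, -0.58 and -0.36, and CD14 was -0.25, -0.13, -0.13 and -0.42. These kept their direction, and their size depended on the scaling. The loess and 75th percentile values match because neither step changes a gene's mean over an array's channels by more than a constant. They therefore count as 1 check of direction. NFKBIA was -0.11, 0.87, 0.87 and 0.03. Across the alternatives the sign changed in 6 of 25 for NFKBIA and in 1 of 25 for CD14, and in 0 for the other members. Signal over background limits these genes, since 8 of the 18 probes did not pass the filter.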

Other observations

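Markers of other cells of the forebrain gave no call either. The 4 erythroid genes tested all lay above 0, with a median difference of 0.33. HEMGN was well above background in 1 saline and 3 dexamethasone samples, and ALAS2 in 2 and 4. Both thus passed the filter through the group where they read higher. HBB2 and HBA differed by 0.55 (SE 0.61) and 0.43 (SE 0.60), with saline 3 the lowest sample, at 14.45 and 14.13. HBB2 had no value in saline 1, so no mean level is given for this list. Of 12 choroid plexus and meningeal genes tested, 9 lay above 0, with a median of 0.28. The endothelial genes, 6 tested, had a median of 0.02, and FLT1, KDR and PECAM1 were above background in no sample. ABCB1 had the highest difference of the 6, at 0.73 (SE 0.14; limma adjusted p = 0.17). The astrocyte, oligodendrocyte and neuron lists had medians of 0.10, 0.03 and -0.00. PTGDS, the prostaglandin D synthase that is listed both with the prostanoid enzymes and with the choroid plexus, read 13.31, 15.90, 15.48 and 15.62 in saline 1 to 4 and 16.51, 15.64, 17.09 and 15.77 in dexamethasone 1 to 4, with saline 1 far below the rest.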
